A study of Homo sapiens with 3 samples.

Results

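The genes described here are 47 human genes of mitosis, the spindle and the kinetochore, chosen by symbol from a list of known mitotic genes. Of these, 46 had a probe set of their own on the Affymetrix Human Gene 1.0 ST array, out of 18417 genes measured in all. CENPA, the histone H3 variant of centromeres, was not measured alone because its probe set also names SLC35F6. RNA was taken from 3 cultures of LoVo, an established human colorectal cancer line, with 1 array per culture. The first was parental LoVo. The others were LoVo-R8, a derivative made by raising the dose of irinotecan from 0.1 to 8 µM, grown free of irinotecan (LoVo 8R-, below 8R-) or with 8 µM irinotecan (LoVo 8R+, below 8R+). The labels of all 3 arrays carry the same treatment text, which has irinotecan given ahead of RNA isolation, and no source used here says if that included the parental cells. LoVo-R8 is 1 resistant derivative, so resistance and the history of that line cannot be told apart.

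Irinotecan is a prodrug whose active form traps topoisomerase I on DNA, and breaks arise when replication forks meet the trapped complexes. Cells then delay before mitosis, where cyclin B and CDK1 drive entry, kinetochores attach chromosomes to spindle microtubules, and the spindle checkpoint holds back anaphase until attachment is complete. Many of these genes are transcribed in G2 and early mitosis from promoters that carry CCAAT boxes, bound by NF-Y, and a cell cycle genes homology region (CHR), bound by the MuvB complexes with B-MYB and FOXM1 or with repressive partners.

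Levels are log2 values made by the authors with the robust multichip average (RMA) method. A difference of 1 on this scale is 2-fold, the size the study used, and 1.5-fold was counted beside it. With 1 array per culture there is no replicate error, so no difference below was tested, and each compares arrays, not conditions. Most of the listed genes were bright. On the parental array they ranged from 6.94 to 10.73, against a median of 7.51 and an upper quartile of 8.97 over all genes, and 43 of the 46 had a mean level above the median mean level of all genes. On all 3 arrays 8 or 9 of 12 colorectal epithelial markers lay above the median of all genes, EPCAM and KRT8 among them. MUC2, the secreted mucin of goblet cells, lay above that median on the parental array alone. At 2-fold, CEACAM5, LGALS4 and MUC2 were lower than in parental LoVo in both LoVo-R8 cultures, and CDH17 was higher. CEACAM5 differed by -2.37 in 8R- and -2.11 in 8R+, LGALS4 by -2.27 and -2.01, MUC2 by -2.14 and -2.51, and CDH17 by 1.07 and 1.13. Of the 12, 9 lay below the parental array in 8R- and 8 in 8R+, and 3 lay above it in each. Of 11 measured markers of other cell types, 1 lay above the median in parental LoVo (ACTA2) and 2 in each LoVo-R8 culture (ACTA2 and COL1A1), with PTPRC, the pan-leukocyte marker, at 4.12 on every array. The log2 of the summed level of these 11 markers was 10.19 in parental LoVo, 10.83 in 8R- and 10.72 in 8R+. ACTA2, the highest of them on each array, was at 8.46, 9.85 and 9.77, and it alone was past 1.5-fold from parental LoVo. For the 12 epithelial markers the log2 of the summed level was 15.28, 14.90 and 14.96 on the parental, 8R- and 8R+ arrays. The part of the 11 markers in the results was not tested.

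Mitotic transcripts lay close to their parental levels in both LoVo-R8 cultures. The exceptions at 2-fold were CCNB1, which encodes cyclin B1 and was lower in 8R-, and SPC24, which encodes an NDC80 complex subunit and was higher in 8R+. RNA came from whole cultures, so fewer cells in mitosis and less RNA per cell cannot be told apart. In 8R-, 0 of 46 genes were at least 2-fold higher than in parental LoVo, against 1.64% of all genes, and 1 was at least 2-fold lower, against 2.78%. In 8R+, 1 was at least 2-fold higher, against 2.25%, and 0 were at least 2-fold lower, against 2.3%. Between the LoVo-R8 cultures 0 genes passed 2-fold in either direction, against 0.527% of all genes higher with irinotecan and 0.114% lower.

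At 1.5-fold, 6 of 46 genes were lower in 8R-, namely CCNB1, CENPK, KIF23, BUB1B, SPC25 and PRC1. That is 13.0%, beside 8.84% of all genes and 13.7% of the 4604 genes whose mean level was above the upper quartile. The count depends on the scaling, with 3 genes under loess correction (CCNB1, CENPK, SPC25), 3 under repeated quantile normalization (CCNB1, KIF23, SPC25) and 8 under median centring, which adds MKI67 and PTTG1. None (0) was 1.5-fold higher, beside 4.37% of all genes and 7.10% of those bright genes. In 8R+, 3 genes, WEE1, SPC24 and ANLN, were at least 1.5-fold higher (background 5.79%), joined by AURKB under loess correction or repeated quantile normalization. By the mean over probe sets the count was 2, without WEE1. CCNB1 and KIF23, 2 genes, were at least 1.5-fold lower in 8R+ (background 7.19%). Of the bright genes, 9.10% were higher and 10.7% lower in 8R+. In 8R+ against 8R-, SPC24 and SPC25 were at least 1.5-fold higher (background 2.87%) and 0 were lower (background 1.08%). That is 4.35% higher, beside 4.15% of the bright genes, of which 1.93% were lower. As deposited, the other 37 genes were within 1.5-fold of the parental array in both cultures. The comparisons share arrays, so their counts are not independent of each other.

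The median difference of the 46 genes was -0.11 in 8R- and 0.00 in 8R+, where the median over all genes was 0 in each. In 8R-, 28 of 46 were below the parental array (60.9%), beside 38.5% of all genes and 58.7% of the bright genes, whose own median was -0.09. The count below was 33 (71.7%) under median centring, 27 (58.7%) under loess correction and 24 (52.2%) under repeated quantile normalization. The shares of the bright genes were 62.1%, 52.5% and 50.9%. As deposited, the lean to lower values in 8R- was thus near that of the bright genes, which hold 27 of the 46. Of genes above the median mean level, which hold 43 of the 46, 54.9% were below, with a median of -0.05. The share of the 46 genes was further above that of the bright genes under median centring and loess correction. It shrank with the last scaling. Median centring only moved the 5 genes tied with the parental array to below it. Such ties were 10.9% of the 46 genes and 2.61% of the bright genes. In 8R+, 21 were above and 21 below the parental array. 8R+ was above 8R- for 33 of 46 (71.7%), with a median of 0.15, beside 57.9% and 0.04 for the bright genes. The count was 29 to 36 under the other scalings (63.0% to 78.3%), beside 48.5% to 63.8% of the bright genes. The 36, under median centring, were the same 33 and the 3 genes tied between these arrays. For 8 of the genes at least 2 arrays held the same value, and NUF2 and CDCA8 had 1 value on all 3. RMA fitted on 3 arrays gives such ties, and 26.1% of all probe sets have one.

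**Figure D1:**
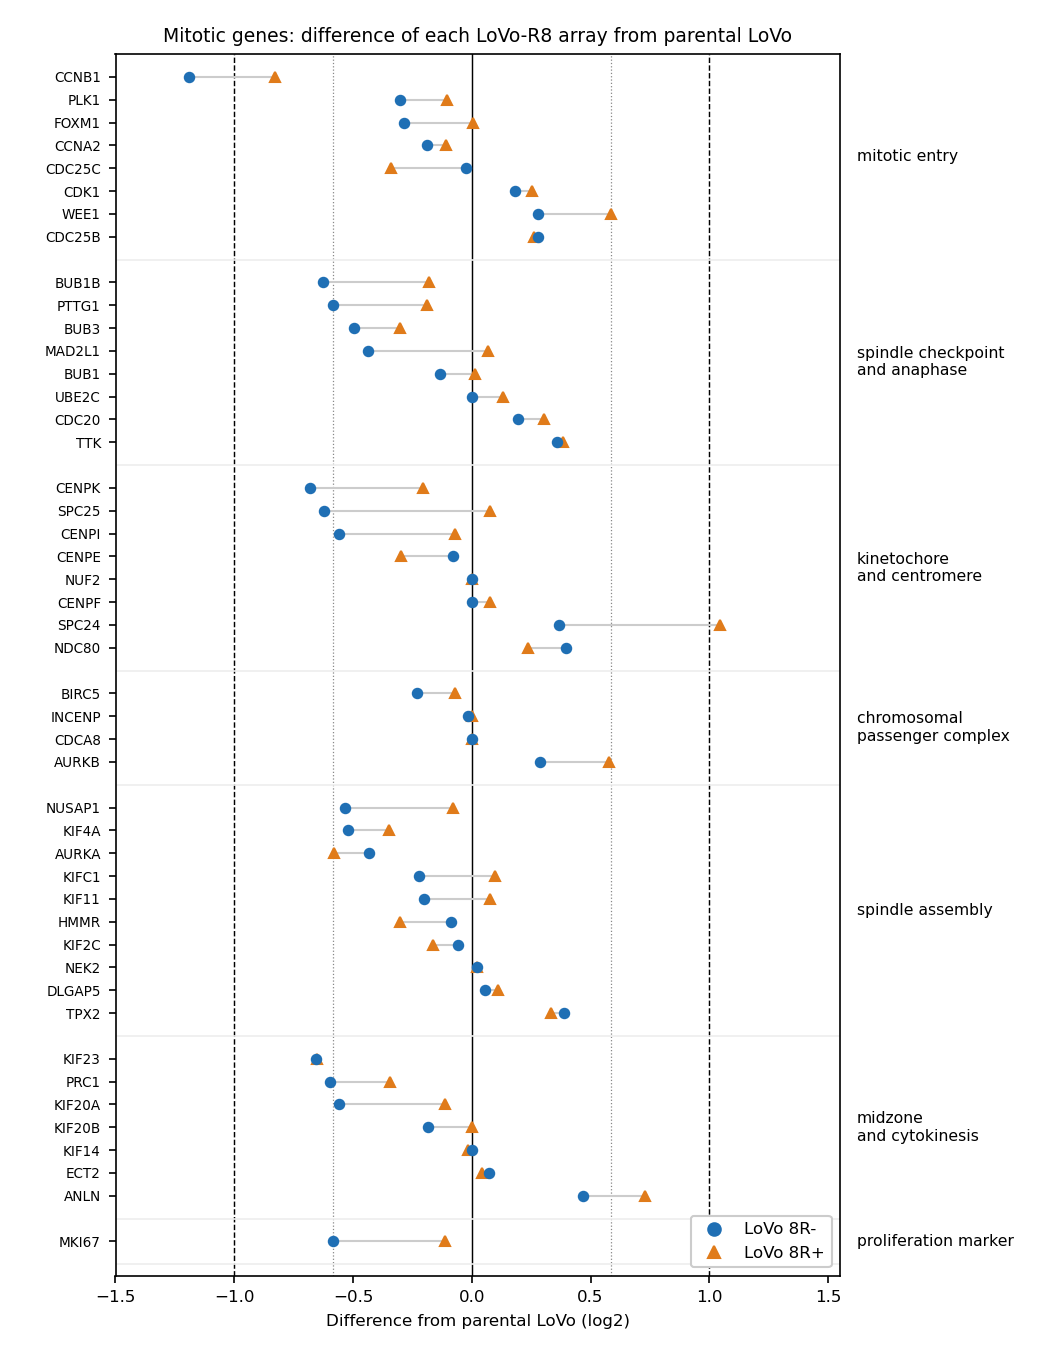
Difference of 8R- (circles) and 8R+ (triangles) from the parental array on the log2 scale, for the 46 measured mitotic genes grouped by role. Dashed lines mark 2-fold and dotted lines 1.5-fold. CCNB1 in 8R- and SPC24 in 8R+ are the points past 2-fold, and for KIF23 the markers overlap at -0.65.

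Among the 8 genes of mitotic entry, CCNB1 was at 10.39 in parental LoVo, 9.20 in 8R- and 9.56 in 8R+. Both resistant cultures lay below the parental one, by -1.19 (0.438 of the parental level) and -0.83 (0.563 of it). In 8R- it ranked 334th from the lowest of 18417 genes. Its kinase partner CDK1 was at 9.15, 9.33 and 9.40 on the parental, 8R- and 8R+ arrays, so the subunits of this complex differed in direction from the parental array. CCNA2, the cyclin that precedes it in S phase and G2, was at 10.11, 9.93 and 10.00. WEE1 encodes the kinase that holds CDK1 inactive. Its level was 9.67 in parental LoVo, 9.95 in 8R- and 10.26 in 8R+, a difference of 0.59 in the last, just past the 1.5-fold threshold. The further pair of WEE1 probe sets gave -0.02 and 0.29 in 8R+, and by the mean over its probe sets WEE1 was at 0.29 and short of it. The probe set used was the brightest by mean over the arrays compared. The one giving -0.02 was brighter on the parental array (9.72). CDC25B, a phosphatase that removes the mark WEE1 sets, was at 8.94, 9.22 and 9.20 on the parental, 8R- and 8R+ arrays, and had the highest difference of the group in 8R- (0.28). Its paralogue CDC25C was below the parental array in 8R+ alone by more than 0.1 (-0.34). For PLK1, the kinase of mitotic entry and spindle assembly, and FOXM1, the transcription factor of the G2 programme, 8R- gave -0.30 and -0.29 and 8R+ gave -0.11 and 0.01.

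The 8 genes of the spindle checkpoint and anaphase had a median of -0.29 in 8R- and 0.04 in 8R+. BUB1B, which encodes the checkpoint protein BUBR1, was at 9.79 in parental LoVo, 9.16 in 8R- and 9.61 in 8R+, so the irinotecan-free culture stood lowest. BUB3 and MAD2L1, which join BUBR1 in the inhibitor of the anaphase-promoting complex, gave -0.49 and -0.44 in 8R- and -0.30 and 0.07 in 8R+. CDC20, the activator which that inhibitor binds, was above the parental array in both, by 0.19 and 0.30. TTK encodes MPS1, the kinase that starts checkpoint signalling at kinetochores. Its levels were 8.38, 8.74 and 8.76 on the parental, 8R- and 8R+ arrays, and its difference in 8R- (0.36) was the highest of the group. PTTG1, the securin that restrains separase, gave -0.58 in 8R-, just short of 1.5-fold, and -0.19 in 8R+. PTTG1 has near-identical copies (PTTG2 and PTTG3P), so its probes may read them too. BUB1 and the ubiquitin-conjugating enzyme UBE2C differed from the parental array by -0.13 to 0.13 in both cultures. All 8 were higher in 8R+ than in 8R-, from 0.02 for TTK to 0.50 for MAD2L1, but TTK was lower in 8R+ under loess correction (-0.01) and repeated quantile normalization (-0.04).

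NDC80, NUF2, SPC24 and SPC25 encode the 4 subunits of the NDC80 complex, the main microtubule coupler of the outer kinetochore, and their differences were unlike one another. SPC24 was at 6.94 in parental LoVo, 7.31 in 8R- and 7.99 in 8R+. It lay below the median of all genes on the first 2 arrays and above it on the last. The difference in 8R+ was 1.05 (2.06-fold), the 383rd highest of 18417 genes. SPC25, its direct partner, was at 7.59, 6.96 and 7.66 on the parental, 8R- and 8R+ arrays, so it was 0.62 lower in the irinotecan-free culture and within 0.08 of the parental array in the other. NDC80 was at 8.34, 8.73 and 8.57, above the parental array in both cultures. NUF2 was listed at 8.67 on all 3. SPC24 and SPC25 were the genes with the largest differences between the LoVo-R8 cultures among the 46, at 0.68 and 0.70 higher with irinotecan, where 95% of all genes differed by less than 0.53.

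The constitutive centromere proteins CENPK and CENPI were lower in 8R- than in parental LoVo. CENPK was at 9.71 in parental LoVo, 9.03 in 8R- and 9.50 in 8R+, and differed by -0.68 in 8R-, the lowest of the kinetochore group there. CENPI gave -0.56 in 8R- and -0.07 in 8R+. For CENPE, the kinetochore motor, 8R+ stood lowest at -0.30, while CENPF, a large protein of the outer kinetochore, was within 0.08 of the parental array. The probe set that CENPA shares with SLC35F6 read 8.97, 8.97 and 8.96.

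The chromosomal passenger complex corrects wrong attachments through its kinase Aurora B. AURKB, which encodes that kinase, was at 9.25 in parental LoVo, 9.53 in 8R- and 9.82 in 8R+, a difference of 0.58 in the last just short of 1.5-fold. It passed 1.5-fold there under loess correction and repeated quantile normalization, at 0.62 in each. The other subunits lay closer to their parental levels. BIRC5, which encodes survivin, was at 8.29, 8.06 and 8.22 on the parental, 8R- and 8R+ arrays. INCENP, the scaffold, stayed within 0.02 of its parental level of 8.13, and CDCA8, which encodes borealin, was listed at 8.82 on all 3 arrays.

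The 10 spindle assembly genes had medians of -0.14 in 8R- and -0.03 in 8R+, and none of them reached 1.5-fold. TPX2 encodes the protein that activates Aurora A on the spindle, and AURKA the kinase itself. TPX2 was at 10.23 in parental LoVo, 10.61 in 8R- and 10.56 in 8R+, the highest difference of the group in 8R-. AURKA differed by -0.43 in 8R- and -0.58 in 8R+, so the activator and its kinase lay on opposite sides of the parental array in both cultures. NUSAP1, a microtubule-bundling protein, was at 10.35, 9.82 and 10.27 on the parental, 8R- and 8R+ arrays, the lowest difference of the group in 8R- at -0.53. Among the motors, KIF4A gave -0.52 and -0.35 in 8R- and 8R+. The probe set KIF4A shares with its near-identical copy KIF4B gave -0.16 in both. KIF11, the motor that separates spindle poles, and KIFC1, the minus-end motor that opposes it, gave -0.20 and -0.22 in 8R- and 0.08 and 0.10 in 8R+. KIF2C, HMMR, NEK2 and DLGAP5 lay between -0.30 and 0.11 in both cultures.

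The midzone and cytokinesis group held differences in both directions. KIF23, the motor of the centralspindlin complex, was at 10.36 in parental LoVo and 9.71 in both 8R- and 8R+. Its difference was -0.65 with and without irinotecan. PRC1, which bundles the antiparallel microtubules of the midzone, was at 10.19, 9.59 and 9.84 on the parental, 8R- and 8R+ arrays. ANLN encodes anillin, the scaffold of the contractile ring, and ran the other way. Its level was 10.50 in parental LoVo, 10.97 in 8R- and 11.24 in 8R+, so both resistant cultures lay above the parental one, by 0.47 (1.39-fold) and 0.73 (1.66-fold). ECT2, the exchange factor that activates RhoA at the same site, was within 0.07 of the parental array. KIF20A, which carries the passenger complex to the midzone, gave -0.56 in 8R- and -0.11 in 8R+, and KIF20B and KIF14 lay between -0.19 and 0.00. MKI67, the marker of cycling cells, was at 10.73, 10.15 and 10.62 on the parental, 8R- and 8R+ arrays. Its difference of -0.58 in 8R- was just short of 1.5-fold.

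**Figure D2:**
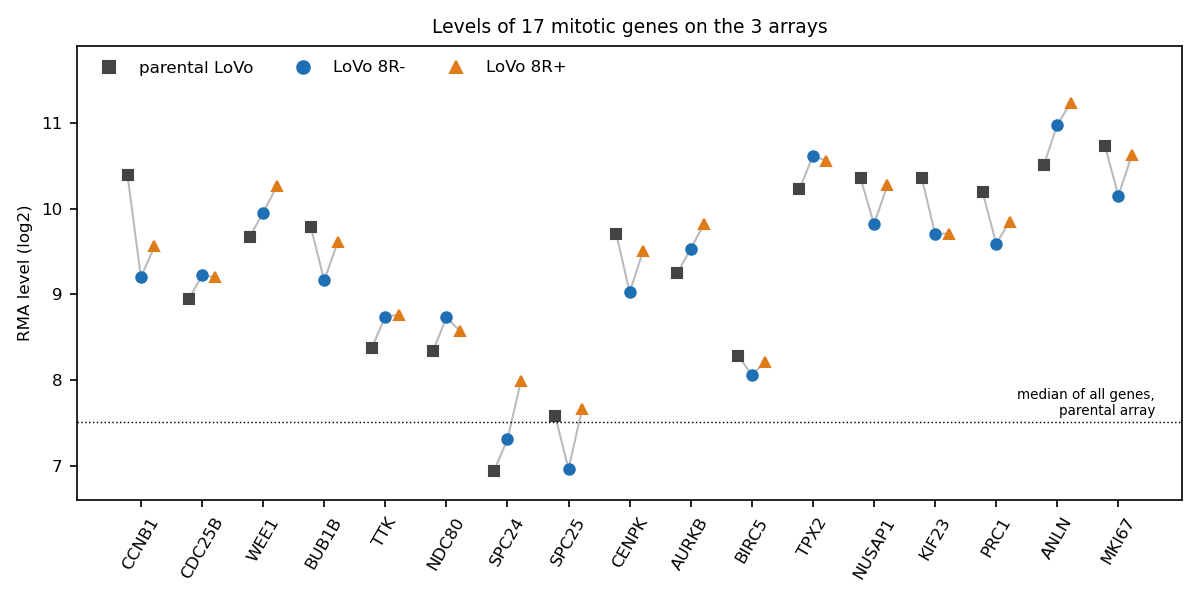
RMA level (log2) of 17 mitotic genes, those past 1.5-fold in any comparison and those with the highest or lowest difference of their role group in 8R-, on the parental (squares), 8R- (circles) and 8R+ (triangles) arrays, with 1 array each and no error bars. Lines join the arrays of 1 gene, and the dotted line marks the median of all genes on the parental array (7.51). CCNB1 stands at 10.39 on the parental array and lower on both others, SPC24 lies above the dotted line in 8R+ alone (7.99), and ANLN is highest in 8R+ at 11.24.

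Promoters were read from RefSeq (GRCh38.p14), in a window from 250 bases before to 50 bases after each annotated start. An entry was found for 39 of the 47 genes, with 49 promoters in all since 6 genes had several, which can overlap. The set of promoters used held no entry for 8 genes, WEE1, FOXM1, BUB3, TTK, UBE2C, BIRC5, AURKA and TPX2. RefSeq positions of these 8 genes were available and were used for the neighbours below. Motifs were searched on both strands. The CHR, spelled TTTGAA, was found in 29 of 49 promoters (59.2%), beside 15.2% of all 35116 promoters. Its variants TTTAAA and TTCGAA were found in 34.7%, beside 13.5%. CCAAT was found in 75.5%, beside 34.6%. CCAAT boxes and the CHR mark late cell cycle promoters, while E2F sites are best known from genes of the G1 to S transition. An E2F motif, spelled TTTCCCGC, TTTGGCGC or TTTCGCGC, was found in 8.16%, beside 2.74%. Matches of different motifs may overlap. By gene, 27 of 39 held both CCAAT and a CHR or variant.

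The promoters of the genes past 2-fold, CCNB1 and SPC24, are printed with those of ANLN and NDC80, the genes with the highest differences from the parental array in 8R-. Each runs 5′ to 3′ on the strand of the gene, with CCAAT, CHR and variant matches in capitals. Capitals that read ATTGG or TTCAAA are matches on the other strand. The window of CCNB1 is chr5:69166900-69167199 on the plus strand, that of SPC24 chr19:11155733-11156032 on the minus strand, that of ANLN chr7:36389612-36389911 on the plus strand and that of NDC80 chr18:2571307-2571606 on the plus strand.
CCNB1: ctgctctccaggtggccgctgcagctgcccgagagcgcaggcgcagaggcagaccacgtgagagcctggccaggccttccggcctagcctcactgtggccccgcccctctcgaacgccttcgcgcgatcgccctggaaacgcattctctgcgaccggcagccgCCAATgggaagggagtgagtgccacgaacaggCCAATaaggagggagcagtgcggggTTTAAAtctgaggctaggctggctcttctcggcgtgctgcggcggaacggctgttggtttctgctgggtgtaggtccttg
SPC24: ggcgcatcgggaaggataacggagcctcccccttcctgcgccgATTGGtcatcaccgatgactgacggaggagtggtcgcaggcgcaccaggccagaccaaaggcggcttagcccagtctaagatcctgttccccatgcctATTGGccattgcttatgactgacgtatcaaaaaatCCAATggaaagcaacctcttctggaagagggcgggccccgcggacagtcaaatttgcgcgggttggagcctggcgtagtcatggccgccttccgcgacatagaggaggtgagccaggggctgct
ANLN: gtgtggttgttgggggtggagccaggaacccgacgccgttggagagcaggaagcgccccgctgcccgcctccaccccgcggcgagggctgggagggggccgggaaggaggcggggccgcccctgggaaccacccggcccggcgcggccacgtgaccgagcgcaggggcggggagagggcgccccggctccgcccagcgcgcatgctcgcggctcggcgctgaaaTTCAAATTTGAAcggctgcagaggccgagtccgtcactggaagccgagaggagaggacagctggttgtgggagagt
NDC80: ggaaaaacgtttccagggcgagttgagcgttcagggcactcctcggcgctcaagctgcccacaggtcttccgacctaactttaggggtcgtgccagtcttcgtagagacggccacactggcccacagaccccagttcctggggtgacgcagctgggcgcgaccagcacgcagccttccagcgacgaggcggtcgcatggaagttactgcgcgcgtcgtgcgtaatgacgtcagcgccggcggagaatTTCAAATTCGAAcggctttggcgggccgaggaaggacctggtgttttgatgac

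CCNB1 holds CCAAT from 87 and from 55 bases before its start and the variant TTTAAA from 30 bases before it. SPC24 holds CCAAT matches from 207, 109 and 74 bases before the start and none of the CHR spellings. ANLN holds TTTGAA on both strands within 26 bases of its start, and NDC80 holds it from 3 bases before the start with TTCGAA next to it. CCNB1 lay below the parental array in both cultures, and SPC24, ANLN and NDC80 lay above it. ANLN and NDC80 were picked for their high differences in 8R-, and a link between motif and direction was not tested. Over the genes with an entry and a value, the medians with and without TTTGAA or CCAAT lay between -0.19 and 0.00. Genes without TTTGAA can hold a variant, as CCNB1 does. The 25 genes with TTTGAA had a median of -0.09 in 8R- and 0.00 in 8R+, and the 13 without had -0.13 and -0.11. The 31 with CCAAT had -0.19 and 0.00, and the 7 without had -0.06 and -0.07. These are matches of letters and are not measured binding.

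Other mitotic genes outside the 47 were counted from 5 lists with 103 measured genes. Their median was -0.20 in 8R- and -0.06 in 8R+, with 79 and 61 of 103 below the parental array. That is 76.7% and 59.2%, beside 58.7% and 54.9% of the bright genes. At 2-fold, 1 was higher and 1 lower in each culture. Of all genes, 1.64% were higher and 2.78% lower in 8R-, and 2.25% and 2.3% in 8R+. CKAP2L, a spindle protein, was at 8.99 in parental LoVo, 10.02 in 8R- and 10.06 in 8R+. MIS12, a subunit that joins the NDC80 complex to the inner kinetochore, was at 9.03, 7.93 and 8.05, a difference of -1.10 in 8R- and of -0.98 in 8R+. STAG1, a cohesin subunit, was at 9.27, 8.48 and 8.22, and was past 2-fold in 8R+ alone (-1.04). At 1.5-fold, 15 were lower and 3 higher in 8R-, and 10 of the 15 were among the 28 other kinetochore and centromere genes. These are 14.6% lower and 2.91% higher, beside 8.84% and 4.37% of all genes and 13.7% and 7.10% of the bright genes. The count lower was 12 under loess correction and 11 under repeated quantile normalization.

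By median, the 46 genes differed less from the parental array than genes of DNA replication, a phase that precedes mitosis. The 34 measured DNA replication genes had a median of -0.56 in 8R-, with 32 of 34 below the parental array, beside 38.5% of all genes. At least 2-fold lower were 8, beside 2.78% of all genes. The lowest of these were CDC6 (-2.13), GINS2 (-1.47), MCM4 (-1.38) and GINS1 (-1.19). In 8R+ the replication genes had a median of -0.14, with 1 at least 2-fold lower, CDC6 (-1.22), beside 2.3% of all genes. Among 20 measured G1 cyclins, CDKs and inhibitors, 4 were at least 2-fold lower in each culture (CCND2, CCNE2, CDC25A and CCNE1). Of all genes, 2.78% were that much lower in 8R- and 2.3% in 8R+. CDKN1A and CDKN2B, 2 genes, were at least 2-fold higher in 8R-, beside 1.64% of all genes. The G1 genes had medians of -0.17 in 8R- and -0.13 in 8R+, beside -0.11 and 0.00 for the 46 genes. In 8R+ against 8R-, 33 of 34 replication genes were higher, with a median of 0.41, beside 33 of 46 and 0.15 for the mitotic genes.

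**Figure D3:**
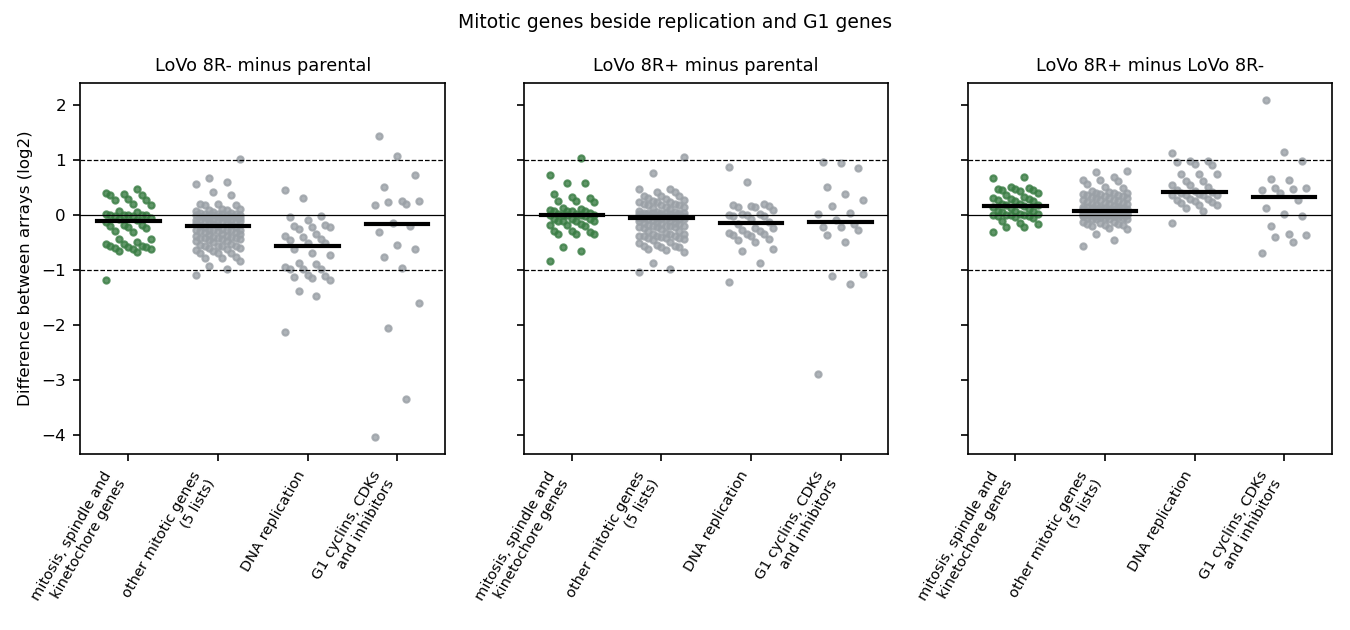
Difference between arrays (log2) for each gene of 4 sets, in 3 panels for 8R- minus parental, 8R+ minus parental and 8R+ minus 8R-. Points are genes, thick bars medians and dashed lines 2-fold. The 46 mitotic genes (green) centre at -0.11, 0.00 and 0.15, and the 34 replication genes at -0.56, -0.14 and 0.41.

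The genes were also ordered by chromosome, a description chosen after their values had been seen. Those on chromosomes 5, 15 and X were all below the parental array in both cultures, except that CDC25C and HMMR of chromosome 5 were above it in 8R- under repeated quantile normalization (0.00 and 0.01). On chromosome 5 these were CENPK, CCNB1, KIF20A, CDC25C, PTTG1 and HMMR, with medians of -0.57 in 8R- and -0.26 in 8R+. On chromosome 15 they were BUB1B, NUSAP1, KIF23 and PRC1, all between -0.65 and -0.53 in 8R-, with a median of -0.26 in 8R+. On chromosome X they were KIF4A and CENPI, with medians of -0.54 and -0.21. The other 777 genes of chromosome 5 had medians of -0.03 and -0.07, with 52.3% and 58.3% below the parental array in 8R- and 8R+. The other 572 of chromosome 15 had -0.05 and -0.06, with 54.2% and 61.5% below, and the other 692 of chromosome X had 0.02 and 0.00, with 32.1% and 40.0% below. The 7 genes on chromosome 1 lay between -0.06 and 0.19 in 8R-.

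Differences of the mitotic genes went in part with those of the 10 measured genes nearest to each. Across the 46 genes, Pearson's r was 0.47 and Spearman's rho 0.48 in 8R-, and 0.35 and 0.34 in 8R+. These are correlations across genes on shared arrays, all set against 1 parental array, and genes are not independent replicates. The median of the neighbours was -0.34 for NUSAP1, -0.33 for PRC1, -0.21 for CCNB1 and -0.18 for KIF23 in 8R-, but 0.00 for BUB1B. BUB3, MKI67, SPC25 and CENPI gave -0.49, -0.58, -0.62 and -0.56 in 8R-, with neighbours at 0.19, 0.07, 0.03 and 0.02. AURKB had the highest median of neighbours, at 0.32 in 8R- and 0.31 in 8R+, where AURKB itself differed by 0.29 and 0.58.

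**Figure D4:**
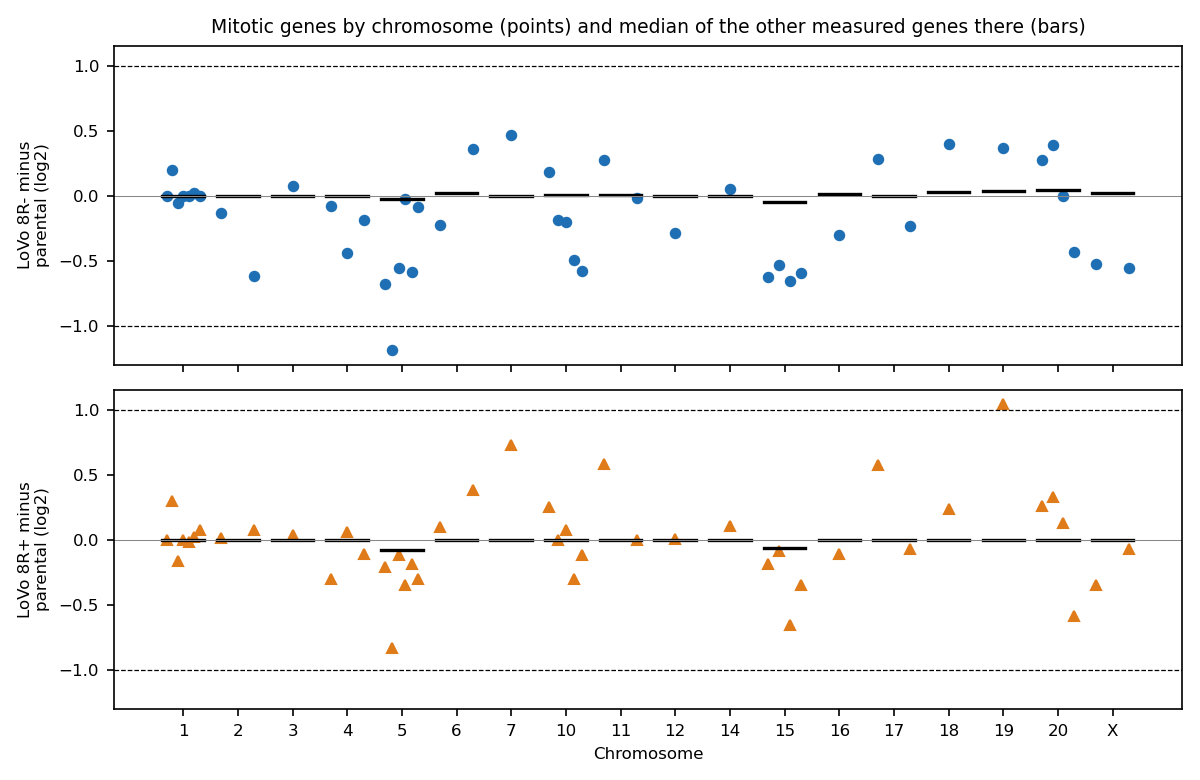
Difference from the parental array (log2) of the 46 mitotic genes by chromosome, for 8R- (top) and 8R+ (bottom). Points are mitotic genes, black bars the median of the other measured genes of that chromosome and dashed lines 2-fold. The 6 points of chromosome 5 and the 4 of chromosome 15 lie below 0 in both panels (CDC25C and HMMR of chromosome 5 not under repeated quantile normalization in 8R-), while the bars there lie between -0.07 and -0.03.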

How the data were processed

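The authors hybridized 300 ng of RNA per culture to an Affymetrix Human Gene 1.0 ST array. The authors deposited log2 levels of 33297 probe sets, made by RMA with background correction, quantile normalization and median polish. The submitters' notes name Affymetrix Expression Console 1.1 and the paper names R with Bioconductor. Levels were set by quantile normalization over 3 arrays, so a shift common to most genes would not show. Of the probe sets, 19460 name 1 gene, 1754 name several and 12083 are unnamed here. Each gene was represented by the brightest, by mean, of the probe sets that name it alone, which gave 18417 genes.

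Groups came from the sample labels. Differences are subtractions of log2 levels, counted at 2-fold and 1.5-fold. With 1 array per culture no test, error or p-value was computed, so precision is limited by the number of arrays. No batch is given in the labels. The genes and lists were chosen with earlier results of these data known.

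Levels are given for genes past 1.5-fold in any comparison and for the highest and lowest of each role group in 8R-. Genes of other lists are named when past 2-fold in either LoVo-R8 culture, at most 4 per list by size. CDKN1A and CDKN2B were named beyond the 4 of the G1 list. Promoters printed are those of genes past 2-fold and then the highest in 8R- with an entry, up to 4 in all. Any other gene was named with its values known.

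Alternatives were 1.5-fold, median centring, loess correction (span 0.3, 3 iterations), repeated quantile normalization and the mean over probe sets. Further ones were bright genes only, by a filter that kept SPC24, and motif searches on the given strand or upstream bases only. The use of 10 neighbours on each side, and of 1.5-fold together with each scaling, was added after seeing the data. Calculations used Python 3.11.15, numpy 2.4.6, pandas 2.3.3, scipy 1.17.1 and statsmodels 0.14.6, and were tested on simulated data. Plots used matplotlib 3.10.9. The study's detection filter was not used here.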

Additional observations from a re-analysis of the deposited data

How the results depend on the processing

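With 1.5-fold in place of 2-fold, 6 genes were lower in 8R-, 3 higher and 2 lower in 8R+, and 2 higher in 8R+ than in 8R-. Counts at 2-fold of the 46 genes held under median centring, loess correction, repeated quantile normalization, mean over probe sets and restriction to bright genes. The medians of the 46 genes stayed between -0.13 and -0.04 in 8R-, 0.00 and 0.03 in 8R+, and 0.10 and 0.17 between the LoVo-R8 cultures. That restriction was not the upper quartile used above. It kept SPC24, whose level exceeded the median of all genes in 8R+ alone, so it cannot test the SPC24 count. Under the 3 scalings and the mean over probe sets, in 204 recomputed differences of the 17 genes plotted by level, none (0) crossed 2-fold. The difference between the LoVo-R8 cultures changed sign for KIF23 (0.00 to -0.04 and -0.05) and TTK (0.02 to -0.01 and -0.04) under loess correction and repeated quantile normalization. At 1.5-fold, chosen with these scalings after seeing the data, the genes lower in 8R- numbered 3 under each of these and 8 under median centring, and those higher in 8R+ numbered 2 to 4. Under loess correction 2 of the 103 other mitotic genes, not 1, were at least 2-fold lower in 8R-. Repeated quantile normalization brought the 8R- median to -0.07 for midzone and cytokinesis genes and to -0.21 for other genes of mitotic entry and exit. On the given strand only, 51.0% of the promoters held TTTGAA and 40.8% CCAAT, beside 8.40% and 19.6% of all promoters. In upstream bases only, 40.8% held TTTGAA and 75.5% CCAAT, beside 13.3% and 32.0%. With 10 neighbours on each side, rho was 0.48 in 8R- and 0.44 in 8R+. No paired analysis was possible because each culture has 1 array. Single arrays cannot separate a difference between cultures from one between arrays, and tied values hide small differences.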
